A study of Mus musculus with 3 samples.

Results

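Autophagy machinery here means 39 genes that build autophagosomes and load them, chosen by name and matched by gene symbol to 39 of the 55536 annotated genes in the deposited tables, with no threshold on a measured value. They were measured in the cytosolic fraction of C57BL/6J bone marrow-derived macrophages (bone marrow cells grown into macrophages in culture). The cells received 100 ng/ml Lipid A over 12 h, were kept without it over another 12 h, and were restimulated with 100 ng/ml Lipid A over 25 min, all in 1 group of 3 libraries labelled biological replicates 1 to 3. Lipid A, the membrane anchor of bacterial endotoxin, activates the receptor TLR4. The biosamples are separate but carry 1 donor entry, so each SD is a spread between 3 samples and could be technical only. Untreated cells and nuclear fractions were not analysed here, so the data give levels within restimulated cells and no response to treatment.

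Autophagy encloses cytoplasm in a double membrane, the autophagosome, which then fuses with lysosomes. A kinase complex around ULK1 starts the process, a lipid kinase complex around VPS34 marks the membrane with a phosphoinositide, lipid transfer proteins feed it, and a ubiquitin-like system couples small proteins of the ATG8 family to its lipids, where receptors that carry cargo dock. In macrophages the same conjugation enzymes also act on phagosomes that have taken up microbes.

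Library totals were 55517261, 21311556 and 45635014 expected counts in replicates 1, 2 and 3. All 8 macrophage markers checked reached 1 TPM (a level corrected for transcript length and scaled to the library) in each library, and their median was 523 ± 111 TPM (SD, n = 3 here and below). None of 10 markers of other cell types did; their summed level was 0.293 ± 0.0850 TPM, and the granulocyte marker Ly6g and the epithelial marker Epcam had no counts. Nuclear protein-coding genes held 29.6%, 40.4% and 34.8% of TPM in replicates 1, 2 and 3. Over protein-coding genes with a mean of 1 TPM or more, the median was 8.34, 10.9 and 8.78 TPM, also highest in replicate 2. TPM was also rescaled so that nuclear protein-coding genes summed to 1000000 in each library (called rescaled TPM below). Of the 39 members, 31 were highest in replicate 2 by TPM and 19 by rescaled TPM. The share of all genes highest in replicate 2 was not counted, so these counts say nothing particular to the members.

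Nearly all of the machinery was detected at modest levels, with GABARAP far above the rest. A level of 1 TPM or more was reached in all 3 libraries by 38 of 39 members, against 42.2% of 22028 protein-coding genes. Atg16l2 was the exception, at 0.90 TPM in replicate 3. The median over members was 8.93 ± 1.65 TPM, beside 9.35 ± 1.38 TPM over 9617 expressed coding genes (protein-coding, mean TPM of 1 or more). Above the median of those genes, 9.41 TPM, lay 18 of 39 members, against 50% by construction, so the members' position as a group was close to that of any expressed gene. Only Gabarap and Vmp1 were above the 90th percentile of 58.5 TPM, 2 of 39 against 10% by construction.

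**Figure D1:**
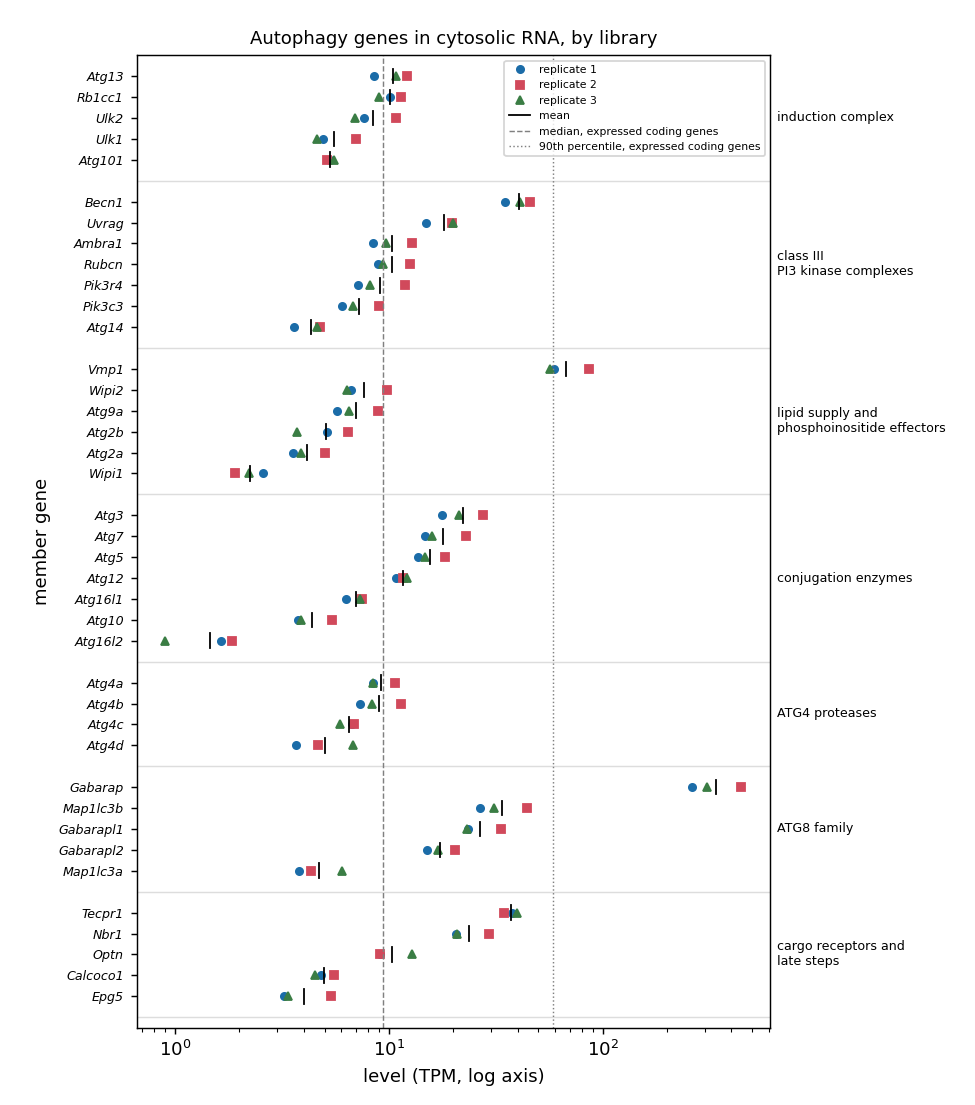
Level of each of the 39 genes (TPM, log axis) in replicates 1 to 3, grouped by role, with the mean as a short black line; dashed and dotted lines are the median and 90th percentile of expressed coding genes. Gabarap stands at 262 to 446 TPM, Vmp1 around the 90th percentile, and all other genes except Wipi1 and Atg16l2 have means between 4.0 and 40.6 TPM.

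By mean gene TPM, the order of levels was clearer at its ends than in its middle. In the ranking by mean TPM, 33 of 38 neighbouring genes were closer to each other than the larger of their SDs. The gaps that exceeded it lay between Gabarap and Vmp1, Vmp1 and Becn1, Atg5 and Atg12, Epg5 and Wipi1, and Wipi1 and Atg16l2. In protein-coding transcripts alone, Gabarap stayed far ahead at 321 ± 83.1 TPM, but below it the order was looser. Vmp1 (42.3 ± 11.8 TPM) was within its SD of Map1lc3b (33.8 ± 9.24 TPM). Atg4d (0.577 ± 0.254 TPM) was within its SD of Atg16l2 (0.557 ± 0.0737 TPM). In the read-based table, a further quantification made from the reads, Wipi1 and Atg16l2 averaged 1.13 and 1.08 TPM.

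Genes of the induction complex had means between 5.33 and 10.5 TPM. Atg13, which links the kinase to its partners, averaged 10.5 ± 1.83 TPM, and Rb1cc1, which encodes the scaffold FIP200, 10.1 ± 1.21 TPM. Atg101, which stabilises ATG13, averaged 5.33 ± 0.201 TPM. Of the kinase genes, Ulk2 had 7.65, 10.8 and 6.94 TPM in replicates 1, 2 and 3 (mean 8.46 ± 2.05), and Ulk1 had 4.92, 7.03 and 4.61 TPM (mean 5.52 ± 1.32). Ulk1 was below Ulk2 in 3 of 3 libraries, by a difference of log2(TPM + 1) of -0.53 ± 0.03.

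By gene TPM, Becn1 was the highest of the 7 lipid kinase complex genes. By TPM of protein-coding transcripts alone, in the same quantification, it was the lowest, at 3.47 ± 0.973 TPM. Uvrag was the highest by that measure, at 16.3 ± 3.72 TPM. Becn1 (chr11:101285952-101302286, mm10) is the gene of Beclin 1, the subunit that most regulators bind. It had 34.9, 45.8 and 41.2 TPM in replicates 1, 2 and 3. Its libraries agreed within 1.05-fold in rescaled TPM, but less closely in counts, which are not corrected for transcript length. In CPM relative to nuclear protein-coding counts, Becn1 had 83.8, 64.3 and 82.8 in replicates 1, 2 and 3, lowest in replicate 2. The catalytic subunit gene Pik3c3 (VPS34) averaged 7.28 ± 1.55 TPM and the gene of its regulatory partner VPS15, Pik3r4, 9.08 ± 2.48 TPM. Ambra1, a Beclin 1 binding regulator, and Rubcn, an inhibitor of the complex that holds UVRAG, averaged 10.3 ± 2.29 and 10.3 ± 1.96 TPM.

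Atg14 and Uvrag encode alternative subunits: ATG14 brings the kinase to forming autophagosomes, and UVRAG brings it to endosomes. Atg14 had 3.60, 4.76 and 4.61 TPM in replicates 1, 2 and 3 (mean 4.32 ± 0.631), and Uvrag had 14.9, 19.8 and 19.9 TPM (mean 18.2 ± 2.83). The groups of values did not overlap, and Atg14 was lower by -1.85 ± 0.05 on the log2(TPM + 1) scale. The ratio of gene TPM was between 0.231 and 0.241 in the single libraries. For protein-coding transcripts, the size of this gap depended on the quantification. In the read-based table, the only protein-coding transcript of Uvrag had 3.56, 3.22 and 1.86 TPM in replicates 1, 2 and 3. The leading Atg14 transcript, also protein-coding, had 2.08, 2.36 and 0.947 TPM there.

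Among genes of lipid supply and phosphoinositide effectors, Vmp1 stood apart. It encodes an endoplasmic reticulum lipid scramblase and had 59.2, 86.2 and 56.6 TPM in replicates 1, 2 and 3 (mean 67.3 ± 16.4). Atg9a, the gene of a scramblase on the vesicles that seed autophagosomes, averaged 7.04 ± 1.63 TPM. The lipid transfer genes Atg2a and Atg2b differed by less than their spread: Atg2a had 3.58, 5.02 and 3.89 TPM (mean 4.16 ± 0.758), and Atg2b had 5.11, 6.41 and 3.72 TPM (mean 5.08 ± 1.35). Their difference was -0.22 ± 0.24, with Atg2a higher in 1 of 3 libraries. The WIPI proteins bind the phosphoinositide that VPS34 makes, and WIPI2 recruits ATG16L1. Wipi2 had 6.65, 9.81 and 6.36 TPM (mean 7.61 ± 1.91), all above Wipi1 with 2.58, 1.91 and 2.21 TPM (mean 2.23 ± 0.336). The difference was 1.40 ± 0.43.

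The last exon of Vmp1 holds the hairpin of a microRNA, Mir21a, that is well known in activated macrophages. The hairpin lies at chr11:86584067-86584158 (mm10, minus strand) within the exon at chr11:86583865-86585451, and its gene had 0 TPM in all 3 libraries, which were selected for fragments of 250 to 400 bases. The mature microRNA was not measured. Its RefSeq sequence (GRCm38.p6) is shown because counts of Vmp1 and of the hairpin cannot be told apart over this stretch, with the seed, bases 2 to 8, in capitals.
mmu-miR-21a-5p: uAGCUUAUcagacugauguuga

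The mean levels of the conjugation genes ran from 22.2 TPM for Atg3 down to 1.46 TPM for Atg16l2. Atg3, which transfers ATG8 proteins to lipid, averaged 22.2 ± 5.05 TPM, and Atg7, which activates both ubiquitin-like proteins of the system, 17.9 ± 4.47 TPM. Atg5 averaged 15.5 ± 2.43 TPM and Atg12, the ubiquitin-like protein joined to ATG5, 11.6 ± 0.740 TPM. Atg10, which joins them, averaged 4.35 ± 0.919 TPM. Atg16l1, which places the ATG12-ATG5 conjugate on the membrane, had 6.32, 7.51 and 7.32 TPM in replicates 1, 2 and 3 (mean 7.05 ± 0.639), and its paralog Atg16l2 had 1.64, 1.85 and 0.90 TPM (mean 1.46 ± 0.499). These ranges did not overlap, and the difference was 1.73 ± 0.35.

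The ATG4 proteases, which trim ATG8 proteins before coupling and release them afterwards, were close in level by gene TPM. Atg4a had 8.44, 10.7 and 8.44 TPM in replicates 1, 2 and 3 (mean 9.19 ± 1.30), and Atg4b had 7.30, 11.4 and 8.35 TPM (mean 9.03 ± 2.16). Atg4c had 6.69, 6.90 and 5.91 TPM (mean 6.5 ± 0.522), and Atg4d had 3.67, 4.68 and 6.80 TPM (mean 5.05 ± 1.60). Atg4b was above Atg4c and Atg4d in 3 of 3 libraries, by 0.40 ± 0.27 and 0.74 ± 0.44. In protein-coding transcripts alone the genes stood further apart, with means of 8.94 ± 1.53 TPM for Atg4a, 6.96 ± 3.51 for Atg4b, 6.23 ± 0.583 for Atg4c and 0.577 ± 0.254 for Atg4d. By that measure Atg4b was above Atg4c in replicate 2 only (mean difference 0.06 on the log2(TPM + 1) scale) and above Atg4d by 2.26 on average. By gene TPM, Atg4b was higher than Atg4a in 1 of 3 libraries, with a mean difference of -0.04 ± 0.14, smaller than its spread. The sign of this difference turned in the read-based table (0.47) and without replicate 1 (0.04).

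The ATG8 family was led by Gabarap in every library. Gabarap (chr11:69991143-69994951, mm10) had 262, 446 and 307 TPM in replicates 1, 2 and 3 (mean 338 ± 96.1), rank 101 among the 9617 expressed coding genes. Map1lc3b, the gene of the LC3B protein commonly used to mark autophagosomes, had 26.6, 44.2 and 31.0 TPM (mean 34.0 ± 9.15). Even the lowest Gabarap value was several times the highest of any other family member. Gabarapl1 had 23.4, 33.4 and 23.3 TPM (mean 26.7 ± 5.80) and Gabarapl2 15, 20.3 and 16.9 TPM (mean 17.4 ± 2.69). Map1lc3a, the LC3A gene, had 3.78, 4.31 and 6.02 TPM (mean 4.70 ± 1.17), the lowest of the family in every library. The ratio of Gabarap to Map1lc3b was among the steadiest measured, 9.84 to 10.1 in single libraries. Gabarap made up 80.2% ± 1.10 of the family's TPM and 69.7% ± 2.19 of its expected counts, which are not corrected for transcript length, and 39.7% of the TPM of all 39 members.

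On the log2(TPM + 1) scale Gabarap exceeded Gabarapl1 by 3.60 ± 0.15, Gabarapl2 by 4.18 ± 0.19 and Map1lc3b by 3.27 ± 0.03. Map1lc3b exceeded Map1lc3a by 2.60 ± 0.45. Of the 12 related pairs compared, 10 kept 1 direction in all 3 libraries, and each of these had p = 0.25 in a two-sided exact sign-flip test over libraries (adjusted p = 0.3 over the 12 pairs). With 3 libraries that test cannot go below 0.25, so no pair could pass a threshold of 0.05. Atg2a against Atg2b gave p = 0.5 (adjusted 0.545) and Atg4b against Atg4a p = 0.750 (adjusted 0.750) in the same exact test.

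**Figure D2:**
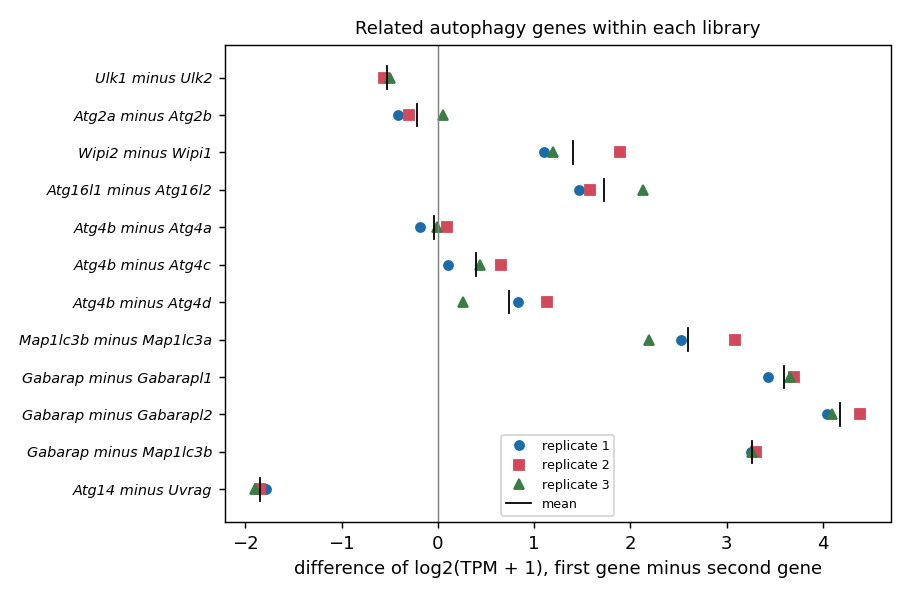
Difference of log2(TPM + 1) between related genes, first gene minus second, in replicates 1 to 3, with the mean as a short black line and 0 in grey. Gabarap lies above its relatives by 3.25 to 4.39 in single libraries, Atg14 lies below Uvrag in all 3, and the points for Atg2a minus Atg2b and Atg4b minus Atg4a fall on both sides of 0.

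Cargo receptors and late factors spread widely. Tecpr1, which tethers autophagosomes to lysosomes, had 37.6, 34.6 and 39.8 TPM in replicates 1, 2 and 3 (mean 37.3 ± 2.57). The receptor genes were lower. Nbr1, a receptor for ubiquitinated cargo, averaged 23.6 ± 5.02 TPM, and Calcoco1, a receptor for endoplasmic reticulum, 4.95 ± 0.515 TPM. Optn, the gene of the receptor optineurin, had 9.13, 9.05 and 12.8 TPM (mean 10.3 ± 2.17). Epg5, a tether for fusion with lysosomes, had 3.24, 5.36 and 3.39 TPM (mean 4.0 ± 1.18), near the low end of the list.

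Members of the pathway that the 39 genes leave out were taken from lists of regulators, other receptors, and other core and fusion genes. Of these 70 genes, 65 reached 1 TPM in all 3 libraries. Their median was 14.4 ± 1.89 TPM, and Map1lc3c was not analysed here. Among receptors the highest were Sqstm1, the gene of p62 (277 ± 20.9 TPM), the ferritin receptor gene Ncoa4 (125 ± 23.3 TPM), Fkbp8 (72.9 ± 20.0 TPM) and Tax1bp1 (53.0 ± 6.63 TPM). Stbd1 (0.0267 ± 0.0252 TPM) was at or below 8 counts in each library, and Calcoco2 had no counts. The first 3 of these receptors had means above every member except Gabarap.

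Fusion genes were led by the lysosomal membrane genes Lamp1 (731 ± 122 TPM) and Lamp2 (208 ± 48.6 TPM), the GTPase gene Rab7 (166 ± 39.1 TPM) and the SNARE gene Vamp8 (132 ± 33.0 TPM). All 25 measured genes of that list reached 1 TPM in every library, down to Rubcnl (3.16 ± 1.03 TPM) and Tbc1d25 (2.18 ± 0.344 TPM). Among regulators Sh3glb1 led (134 ± 17.8 TPM), followed by the transcription factor gene Tfe3 (36.7 ± 7.0 TPM), the kinase gene Stk11 (31.0 ± 2.60 TPM) and the inhibitor gene Bcl2l1 (31.0 ± 1.85 TPM). The AMP kinase subunit genes Prkab2 (0.917 ± 0.245 TPM) and Prkaa2 (0.0467 ± 0.00577 TPM) were lowest.

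The members were low beside genes of the proteasome and genes of lysosomes, with which autophagosomes fuse. Their median of log2(TPM + 1) was below that of 32 constitutive proteasome genes by -2.25 ± 0.10 and below that of 41 lysosome genes by -3.54 ± 0.10, each in 3 of 3 libraries (two-sided exact sign-flip test over libraries, p = 0.25, the smallest it allows). Medians were 8.93 ± 1.65 TPM over members, 45.9 ± 4.63 TPM over proteasome genes and 114 ± 14.1 TPM over lysosome genes. Proteasome genes ran between Psmb6 (140 ± 20.4 TPM), Psmd8 (112 ± 10.9 TPM), Psmb2 (89.4 ± 15.2 TPM) and Psma3 (87.5 ± 22.3 TPM) at the top and Psmd6 (22.3 ± 1.27 TPM) and Psmd12 (21.5 ± 3.23 TPM) at the bottom. Lysosome genes ran between Psap (4516 ± 922 TPM), Ctsd (3346 ± 411 TPM), Ctsb (2942 ± 1080 TPM) and Ctss (1462 ± 200 TPM) at the top and Ostm1 (25.8 ± 3.72 TPM) and Mcoln1 (25.7 ± 8.71 TPM) at the bottom. Of the 39 members, only Gabarap, Vmp1, Becn1, Tecpr1, Map1lc3b and Gabarapl1 had means above the lowest lysosome gene.

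**Figure D3:**
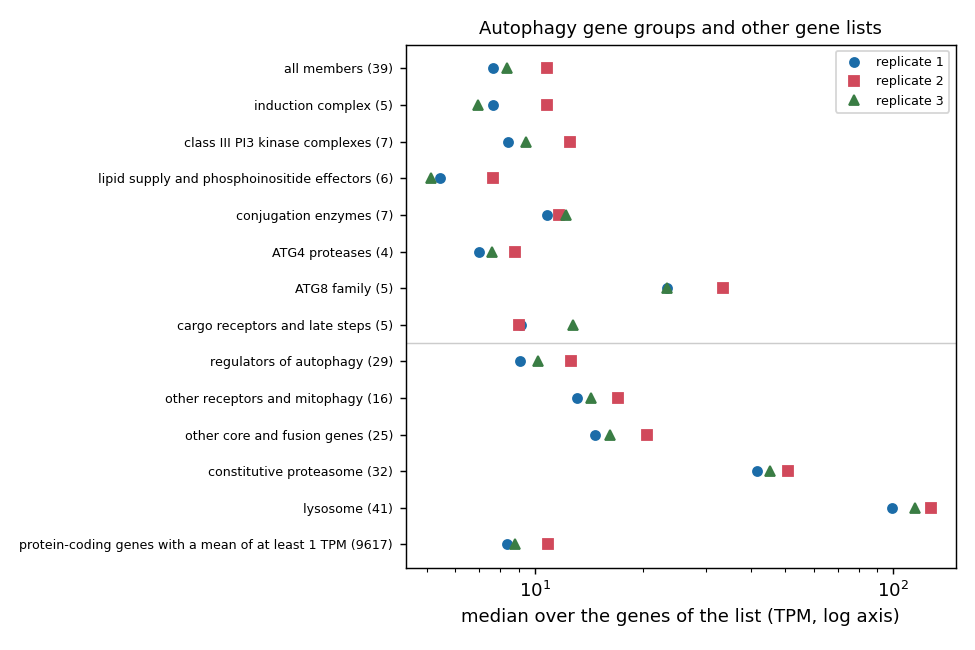
Median TPM (log axis) over the genes of each list in replicates 1 to 3, with the number of genes in brackets; the 39 members and their role groups are above the grey line and other lists below it. The ATG8 family has the highest median of the role groups, 23.3 to 33.4 TPM, and the proteasome and lysosome lists lie above every role group.

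Lysosome genes are known as targets of TFEB and TFE3, which bind a DNA element built on the letters CACGTG. In the stretch from 250 bases before to 50 after each RefSeq gene start (GRCm38.p6), CACGTG, which reads the same on both strands, was found for 5 of the 32 members matched to a promoter (Atg3, Atg5, Atg7, Atg14 and Rubcn), for 12 of 32 lysosome genes and for 8.09% of all 27025 genes in the table. The longer TCACGTGA, which contains it, was found for 1 of 32 members, 7 of 32 lysosome genes and 1.12% of all genes. The same element with G before and C after it was found for 0 of 32 members, 0 of 32 lysosome genes and 0.370% of all genes. The 1 member with the middle element was Atg3; its stretch at chr16:45158741-45158780 (plus strand) is shown with the motif, which starts 72 bases before the RefSeq gene start, in capitals.
Atg3 promoter: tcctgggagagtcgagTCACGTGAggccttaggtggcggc

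Gene levels hide which transcripts were counted. For 37 of 39 members the transcript with the largest share of TPM was annotated as protein-coding, and it held a median of 72.0% of the gene's TPM over members, beside 80.6% over 9611 expressed coding genes. The exceptions were Becn1 and Atg4d, 2 of 39 against 5.06% of those genes. Less than 50% of TPM lay in protein-coding transcripts for Becn1, Atg4d and Atg16l2, 3 of 39 against 5.41%. Both shares were close to the background.

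**Figure D4:**
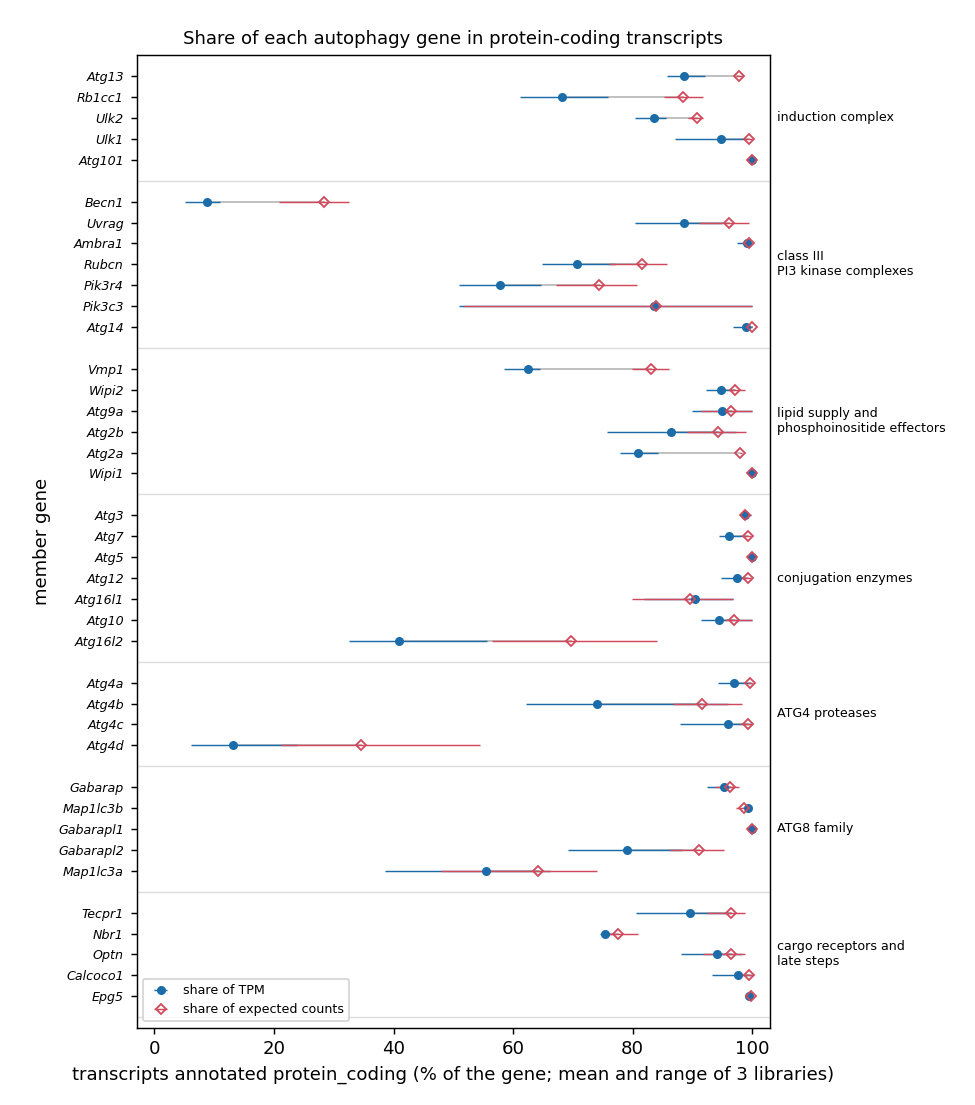
Share of each gene in transcripts annotated protein_coding (percent), by TPM (filled circles) and by expected counts (open diamonds); points are means and lines the range of 3 libraries. Becn1 and Atg4d lie far left of the other genes by both measures, Atg16l2 by TPM, and Pik3c3 spans 50.9% to 100% because of replicate 2.

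Becn1 is the clearest case, since its place among the most abundant members rests on transcripts not annotated as protein-coding. Protein-coding transcripts of Becn1 held 11.0%, 5.18% and 10.2% of its TPM in replicates 1, 2 and 3, or 3.47 ± 0.973 of 40.6 ± 5.45 TPM, and 28.4% ± 6.47 of its counts. Becn1-211, a retained-intron entry of 487 bases, held 45.8% ± 4.19 of TPM from 371, 158 and 327 counts. Becn1-205, the protein-coding transcript of 4365 bases, had 1256, 263 and 1029 counts but 3.35, 2.37 and 3.81 TPM. A transcript annotated as subject to nonsense-mediated decay (the decay transcript) had the most counts, 1594, 625 and 1570.

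Almost all of these sequences are shared. Of the 487 bases of Becn1-211, 482 lie in exons of Becn1-205, and the other 5, at its start (chr11:101295432-101295436, minus strand), are in capitals below. The decay transcript of Becn1 differs by 68 of 2123 bases, and 64 of them, at chr11:101296194-101296257, extend the exon printed here, whose last 3 bases are the annotated stop codon. These stretches are shown because the assignment of reads between the transcripts turns on them, and they are from the GENCODE M21 transcripts.
Becn1-211 start: TCCAGgtcactggagacctgtttgacatca
Becn1 decay transcript exon: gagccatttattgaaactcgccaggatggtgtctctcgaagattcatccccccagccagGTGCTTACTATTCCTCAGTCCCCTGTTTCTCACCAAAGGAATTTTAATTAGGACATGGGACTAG

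By TPM, most of Atg4d lay on a transcript annotated with a retained intron. Atg4d-203 had 1.96, 3.15 and 4.09 TPM in replicates 1, 2 and 3, from 338, 160 and 510 counts. The 1 protein-coding transcript, Atg4d-201, had 0.870, 0.440 and 0.420 TPM from 452, 67 and 156 counts. In counts Atg4d-201 was ahead in replicate 1 and Atg4d-203 in replicates 2 and 3. By TPM, Atg4d-203 was highest in replicate 3, where the gene as a whole was highest.

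Gabarap lay nearly all on transcripts annotated as protein-coding, divided between a pair of them. Gabarap-201 had 163, 230 and 185 TPM in replicates 1, 2 and 3, and Gabarap-202 had 88.4, 183 and 112 TPM. Their shares of TPM were 58.1% ± 5.71 and 37.1% ± 3.62, and by counts 74.0% ± 4.66 and 22.2% ± 2.80. In the read-based table their mean shares of TPM were 74.3% and 25.3%. Every base of Gabarap-202 lies in exons of Gabarap-201; it lacks 94 coding bases of 1 exon (chr11:69992582-69992675, plus strand), in capitals below, and is otherwise shorter only at its ends.
Gabarap-201 exon: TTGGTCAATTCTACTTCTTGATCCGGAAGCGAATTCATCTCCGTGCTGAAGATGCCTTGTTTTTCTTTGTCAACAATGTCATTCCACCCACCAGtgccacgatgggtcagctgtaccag

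The transcript makeup of a few other members differed between libraries or between tables. For Pik3c3, a transcript annotated for nonsense-mediated decay, Pik3c3-204, had 346 counts in replicate 2 and 0 in both others, so protein-coding transcripts held 50.9% of TPM in replicate 2 and 100% in replicates 1 and 3. Vmp1-205, of 326 bases, had 54, 59 and 97 counts but 5.32, 21.8 and 11.5 TPM, while the main protein-coding transcript had 7606, 2313 and 3627 counts and 32.8, 33.8 and 21.6 TPM. Map1lc3a-201, the protein-coding LC3A transcript, held 55.4% ± 14.8 of that gene's TPM. Uvrag-201 held 88.6% ± 7.51 of Uvrag TPM, but 22.3% in the read-based table.

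Retained-intron transcripts took 4.74%, 3.81% and 2.60% of the members' counts in replicates 1, 2 and 3, and 2.64%, 1.76% and 1.48% of the counts of expressed coding genes. Of 25 members with counts on such a transcript, 20 had their highest share in replicate 1, against 76.9% of 5757 expressed coding genes, so the members were near the background. The nuclear RNA Malat1 moved in the same order, with 8329, 3480 and 1444 CPM relative to nuclear protein-coding counts (protein-coding CPM), as did Neat1 with 924, 212 and 152. Whether nuclear RNA in the cytosolic fraction took part in the retained-intron shares was not tested.

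Differences between the libraries were small for most members and followed those of all genes. The highest and lowest library differed by a median of 1.25-fold over members in rescaled TPM, beside 1.30-fold over expressed coding genes. The members' median log2 ratio of a library to the mean of the other 2, in protein-coding CPM, was 0.09 in replicate 1, -0.03 in replicate 2 and -0.10 in replicate 3, beside 0.09, -0.02 and -0.09 over 9604 expressed coding genes. Below that mean were 13 of 39 members in replicate 1 (32.8% of all), 22 in replicate 2 (53.2%) and 27 in replicate 3 (64.4%). These counts were near the background.

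**Figure D5:**
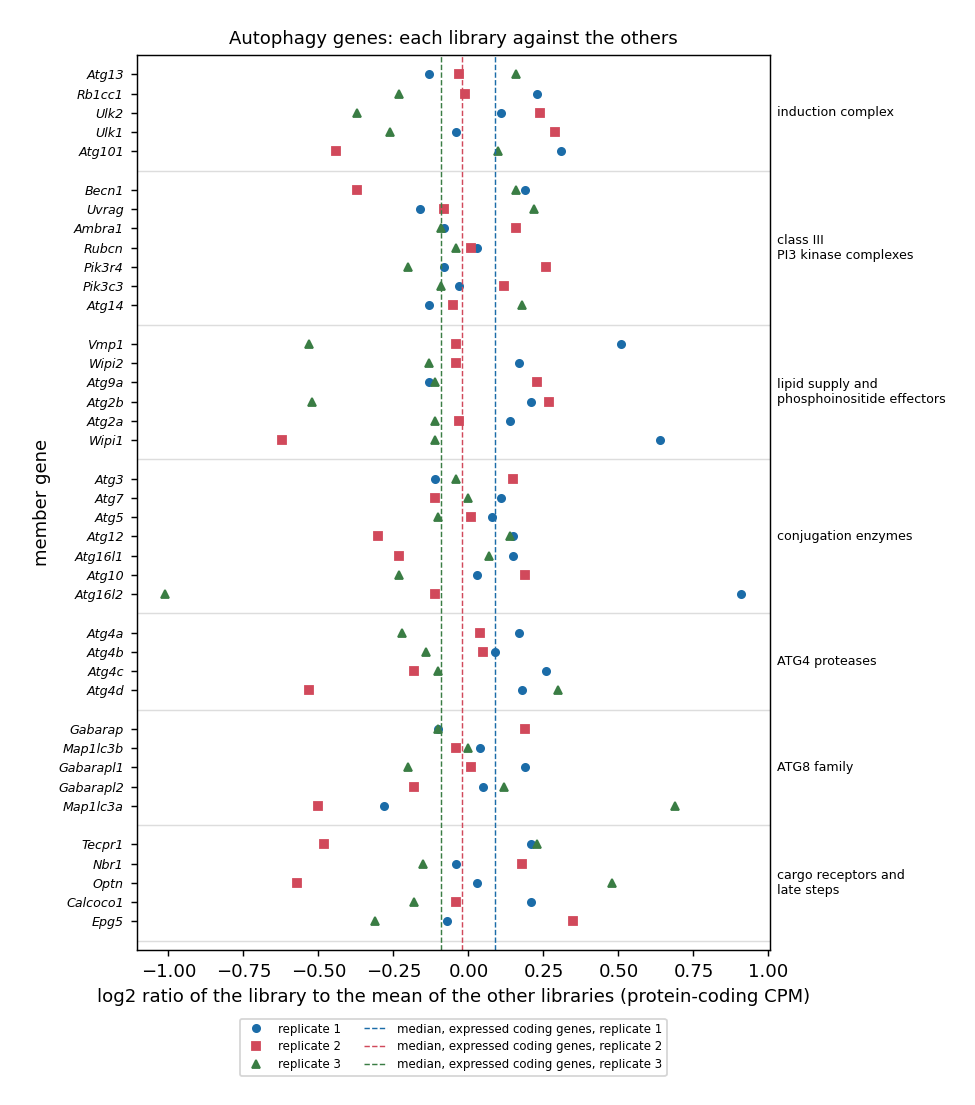
Log2 ratio of a library to the mean of the other 2 for the 39 genes (protein-coding CPM, offset 0.1), grouped by role; dashed lines are the medians of expressed coding genes. The points of most genes lie close to the dashed lines, and Atg16l2 has the widest spread, 0.91 in replicate 1 against -1.01 in replicate 3.

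A few members varied more, and they did not move together. The largest ranges in rescaled TPM were those of Atg16l2 (5.53, 4.58 and 2.59 in replicates 1, 2 and 3), Wipi1 (8.71, 4.72 and 6.36) and Atg4d (12.4, 11.6 and 19.6). Optn (30.8, 22.4 and 37.0) and Map1lc3a (12.8, 10.7 and 17.3) followed. Atg16l2 and Wipi1 were highest in replicate 1, whereas Atg4d, Optn and Map1lc3a were highest in replicate 3. For Atg4d this depended on the correction for length. In protein-coding CPM it had 17.3, 12.3 and 18.2, so replicates 1 and 3 were close and replicate 2 was lower.

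The biological coefficient of variation, edgeR's estimate of relative spread beyond counting error, had a median of 0.139 over the 39 members and 0.166 over 11161 protein-coding genes. It was highest for Atg16l2 (0.340), Map1lc3a (0.295), Wipi1 (0.25), Atg101 (0.214) and Atg10 (0.199) and lowest for Atg7 (0.120). The 5 highest were also the 5 members with the fewest counts, 551 to 1026 over all libraries, and estimates of single genes are drawn towards the trend over genes. No gene was tested for a difference, since there is 1 group.

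Neighbouring and copied sequence limits some of these levels, and the use of strand in counting is not given in the sources used here. Of the 39 members, 8 overlap another gene with at least 1 TPM on average. Map1lc3b (chr8:121590361-121598760) lies within Gm20388 on the same strand, which had 10.7, 21.6 and 10.6 TPM in replicates 1, 2 and 3. Both were highest in replicate 2 by TPM, but so were most members (31 of 39, Map1lc3b included). Atg16l2, at 1.46 ± 0.499 TPM, overlaps Fchsd2 on the other strand, at 16 ± 3.93 TPM, and Atg4d overlaps Kri1, at 9.65 ± 0.668 TPM. Reads of partners on the other strand cannot be told apart without strand. For Map1lc3b and Gm20388, on the same strand, knowing the strand would not separate them. Processed copies of at least 95% identity exist for Map1lc3b (4) and Gabarapl2 (3), all under 1 TPM on average except Gm6055, a Map1lc3b copy with 0.950, 1.00 and 2.68 TPM. The Atg4a copy Atg4a-ps averaged 0.08 TPM.

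The read-based table gave lower TPM for all 39 members, by a median of -0.85 on the log2(TPM + 1) scale, beside -0.86 over 9668 protein-coding genes. Nuclear protein-coding genes held only 20.5%, 21.4% and 7.95% of that table's TPM in replicates 1, 2 and 3. After both tables were rescaled to those genes, the median difference over members was 0.03, beside 0.01 over the same background. By then 16 of 39 members were lower. Lower genes were not counted over the background, before or after rescaling. The widest differences after rescaling were those of Uvrag (0.66), Atg4b (0.54) and Rb1cc1 (0.49), all higher in the read-based table, and of Pik3r4 (-0.38), which was lower.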

How the data were processed

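Each library's gene table and transcript table hold expected counts that the authors did not normalize and TPM that the authors scaled within the library, per the file headers. A further transcript table, made from the reads per the deposited description files, holds estimated counts and TPM. Those description files name mm10 and GENCODE M21. Which programs were run is not given in the sources used here. Of 81881 identifiers, 55536 matched the annotation. The limit behind a count of 0, set at 3 counts, equals 0.0541 CPM in replicate 1, 0.141 in replicate 2 and 0.0658 in replicate 3, for counting error alone.

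Members were listed by name with no threshold on values, but they, the lists and the pairs were chosen with earlier results of these data known. All members were named; library values were given for the ATG8 family, the pairs, the 5 highest and 5 lowest members and the 5 with the largest range in rescaled TPM, and of each other list the 4 highest and 2 lowest genes were named. Log2 values used a pseudocount of 1, which understates differences of low genes; ratios used an offset of 0.1. Comparisons were made within libraries with exact sign-flip tests and Benjamini-Hochberg adjustment over 12 pairs. Dispersion came from edgeR 4.0.16 in R 4.3.3 with an intercept, TMM factors and filterByExpr, after rounding the expected counts, tested on simulated data; DESeq2 1.42.0 was an alternative. Copies were found with blastn 2.17.0, with at least 95% identity over at least 200 bases and at least 50% of the other transcript. Other steps used Python 3.11.15, pandas 2.3.3 and matplotlib 3.10.9. Protein sequences were not used here.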

Additional observations from a re-analysis of the deposited data

How the results depend on the processing

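Of 146 alternatives to 23 results, 127 kept the sign of a difference, a count within 1.5 times or another value within 1 SD. Pair differences changed in size by more than their SD in 23 of 84 alternatives, 17 of them from the read-based table or protein-coding transcripts alone. With all transcripts of a gene summed in the read-based table, Gabarap minus Map1lc3b was 2.73 and Atg14 minus Uvrag -2.26. The median over members was 4.33 TPM in the read-based table, 25.5 in rescaled TPM and, in an alternative chosen after seeing the data, 7.07 TPM in protein-coding transcripts only. With all protein-coding genes that had a count as background, 37 members lay above the median. The 11 other pairs kept their sign under every alternative, while Atg4b minus Atg4a turned to 0.47 in the read-based table and ranged from -0.10 to 0.04 with single replicates left out. Library ratios in TMM-normalized CPM were -0.02 in replicate 1 and 0.00 in replicate 3, and in TPM as deposited -0.29 in replicate 1 and 0.45 in replicate 2; the ratio of replicate 2 was 0.07 without replicate 1 and -0.09 without replicate 3. The coefficient of variation was 0.148 with no filter, 0.145 with DESeq2 and 0.144 to 0.151 with single replicates left out. The leading transcript held 62.6% in the read-based table, 86.9% by counts (chosen after seeing the data) and 69.7% to 79.7% with single replicates left out. Except where a setting changes the scale or the background by construction, the cause was not tested. Samples could not be paired between groups because there is 1 group. Depth limits Map1lc3a and Atg16l2 most, with 89 and 91 counts in replicate 2.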
